A study of Mus musculus with 12 samples.

Results

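Nos2, the gene of inducible nitric oxide synthase (iNos), was followed together with 5 genes that supply its substrate and cofactor. Of 7 genes chosen by symbol among the 15002 listed for each library, the 6 described here were Nos2, Ass1, Asl, Gch1, Slc7a1 and Slc7a2. All 12 libraries came from IEC4.1, described as an intestinal epithelial line of the mouse, with the genotype WT, in 4 groups of 3 libraries. One pair of groups was transfected with a scrambled siRNA (siR_Ctrl, SiNegative control in the labels) and the other with 3 pooled siRNAs that target Nostrill, a long noncoding RNA (siR_Nostrill, SiNostril in the labels). In each pair 1 group was left without and 1 was given interferon gamma (IFN-γ). Transfection lasted 24 h and IFN-γ was given at 1 ng/ml for 4 h, while the sample labels carry 24 h for every library. Every group was transfected and comes from this single line, so untransfected cells and other lines were not part of the comparison.

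iNos makes nitric oxide (NO) from arginine, and citrulline is released in the same reaction. Argininosuccinate synthase (Ass1) and argininosuccinate lyase (Asl) turn citrulline back into arginine, and the carriers Slc7a1 and Slc7a2 bring arginine into the cell. GTP cyclohydrolase 1 (Gch1) catalyses the first step of the synthesis of tetrahydrobiopterin, a cofactor that iNos requires. Nos2 is best known from activated macrophages, where IFN-γ and microbial products induce it, and it is also induced in inflamed intestinal epithelium.

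The siRNAs are shown because the comparisons between siR_Nostrill and siR_Ctrl rest on them, and because an siRNA can also lower other transcripts through its seed. Nostrill is annotated as 2500002B13Rik (gene ID 78353, chromosome 8, 57487963 to 57510262, GRCm38.p6). The sense strands read 5′ to 3′ as follows, with the stretch that pairs with guide bases 2 to 8 in capitals.
Nostrill-1: ccugggaagaaGCAUUAAu
Nostrill-2: ccaccaggaacACACAAAu
Nostrill-3: gccuauaagucGUUCUAAu

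Nostrill-1 matched bases 121 to 139 and Nostrill-2 bases 307 to 325 of the GENCODE vM21 transcript 2500002B13Rik-201 (2618 bases), and Nostrill-3 matched neither of the 2 annotated transcripts of that gene. The longest coding transcripts of Nos2, Asl and Gch1 held 0 matches to any of the 3 seed stretches. Ass1 and Slc7a1 each held 1 match to Nostrill-1 and 1 to Nostrill-2, and Slc7a2 held 2 matches to Nostrill-2. Over the longest coding transcripts of 21877 genes, matches were found in 11.9%, 24.8% and 12.5% for Nostrill-1, Nostrill-2 and Nostrill-3. The matches in the members are given with 7 bases on either side, the seed match in capitals, and a match is a description of letters and not a site of action.
Ass1-201, bases 1494 to 1500, 3′UTR, Nostrill-1: ggcttcaGCATTAAttgttgt
Slc7a1-201, bases 5872 to 5878, 3′UTR, Nostrill-1: ctcccaaGCATTAAggaatct
Ass1-201, bases 822 to 828, coding, Nostrill-2: ggtctctACACAAAaactcag
Slc7a1-201, bases 969 to 975, coding, Nostrill-2: aacaacgACACAAAcgtgaaa
Slc7a2-201, bases 3530 to 3536, 3′UTR, Nostrill-2: aaggaccACACAAAgcctctc
Slc7a2-201, bases 7698 to 7704, 3′UTR, Nostrill-2: atgtatcACACAAAacaaagg

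Between 17824306 and 19093204 reads were counted on genes in a library. The labelled cell type was checked against marker genes, which did not bear out the epithelial label. Most epithelial markers were near 0 or not listed, while most mesenchymal markers were high. Of 15 epithelial markers 9 were listed, with Epcam, Cdh1, Cldn3, Cldn4, Cldn7 and Ocln not among the listed genes, and only Krt19 and Tjp1 had a mean of at least 1 FPKM (fragments scaled to transcript length and to the mapped reads of the library). The defining epithelial markers Krt8 and Vil1 stayed at or below 0.28 and 0.07 FPKM. The summed epithelial level was 10.1 to 17.9 FPKM in siR_Ctrl, 7.6 to 14.97 in siR_Ctrl + IFN-γ, 8.4 to 10.9 in siR_Nostrill and 10.2 to 13.6 in siR_Nostrill + IFN-γ cells. Tjp1 made up most of this sum, with means of 10.4, 8.77, 6.82 and 10.1 FPKM in these groups. All 10 mesenchymal markers were listed, with sums of 2217 to 2435, 2563 to 2671, 2127 to 2334 and 2268 to 2408 FPKM in the same order, so that siR_Ctrl + IFN-γ cells lay above the other 3 groups with no overlap. Vim made up most of the sum and its mean went from 1621 FPKM in siR_Ctrl to 1997 in siR_Ctrl + IFN-γ cells. In these 2 groups the means of the 7 other mesenchymal markers at or above 1 FPKM were lower with IFN-γ. In siR_Nostrill cells the means of Vim, Col1a1, Acta2 and Dcn were higher with IFN-γ, and those of Col1a2, Col3a1, Pdgfra and Pdgfrb were lower. Of 14 macrophage and leukocyte markers 9 were listed, with Adgre1 and Itgam not among them. Their summed level was 16.5 to 19.0 FPKM in siR_Ctrl, 16.3 to 19.5 in siR_Ctrl + IFN-γ, 19.3 to 21.9 in siR_Nostrill and 19.0 to 21.6 in siR_Nostrill + IFN-γ cells, with no overlap between siR_Ctrl and siR_Nostrill cells at rest. Most of it was Cd14, and the pan-leukocyte marker Ptprc did not exceed 0.01 FPKM in any library. The part of these marker levels in the results was not tested. Nostrill, the targeted RNA, was not analysed here and could not serve to check the siRNA labels.

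Nos2 (gene ID 18126, chromosome 11, 78920787 to 78960226, plus strand, GRCm38.p6) was low at rest and rose with IFN-γ in both siRNA backgrounds. In siR_Ctrl cells its level was 5.73, 3.11 and 4.78 FPKM in replicates 1, 2 and 3, from 401, 215 and 327 reads. With IFN-γ it was 66.52, 52.66 and 88.49 FPKM, from 4735, 3748 and 6467 reads. The lowest library with IFN-γ lay far above the highest without it, so the groups did not overlap. The fitted increase was 15.9-fold (95% interval 11.1 to 22.9), or 3.99 as log2 fold change (SE 0.24, adjusted p = 4.24e-07, quasi-likelihood test of edgeR, Benjamini-Hochberg over 11900 genes). In whole cell cultures such as these, more transcript per cell and more cells that express the gene cannot be told apart.

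In siR_Nostrill cells Nos2 was at 2.92, 3.24 and 4.74 FPKM without IFN-γ, from 202, 217 and 332 reads. With IFN-γ it was at 60.29, 56.44 and 53.41 FPKM, from 4224, 3881 and 3682 reads. Again no library of one group reached the other. The increase was 15.6-fold (95% interval 10.8 to 22.5) or 3.97 as log2 fold change (SE 0.24, adjusted p = 4.91e-07, edgeR, Benjamini-Hochberg). Nos2 ranked 52 by fold change among the 560 genes that rose in siR_Ctrl cells, whose median log2 fold change was 1.05, and 49 among the 623 that rose in siR_Nostrill cells, with a median of 0.96. By TPM, which scales the length-corrected counts of every library to the same total, Nos2 moved from places 8167 to 9016 of the 15002 genes without IFN-γ to places 1142 to 1977 with it.

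**Figure D1:**
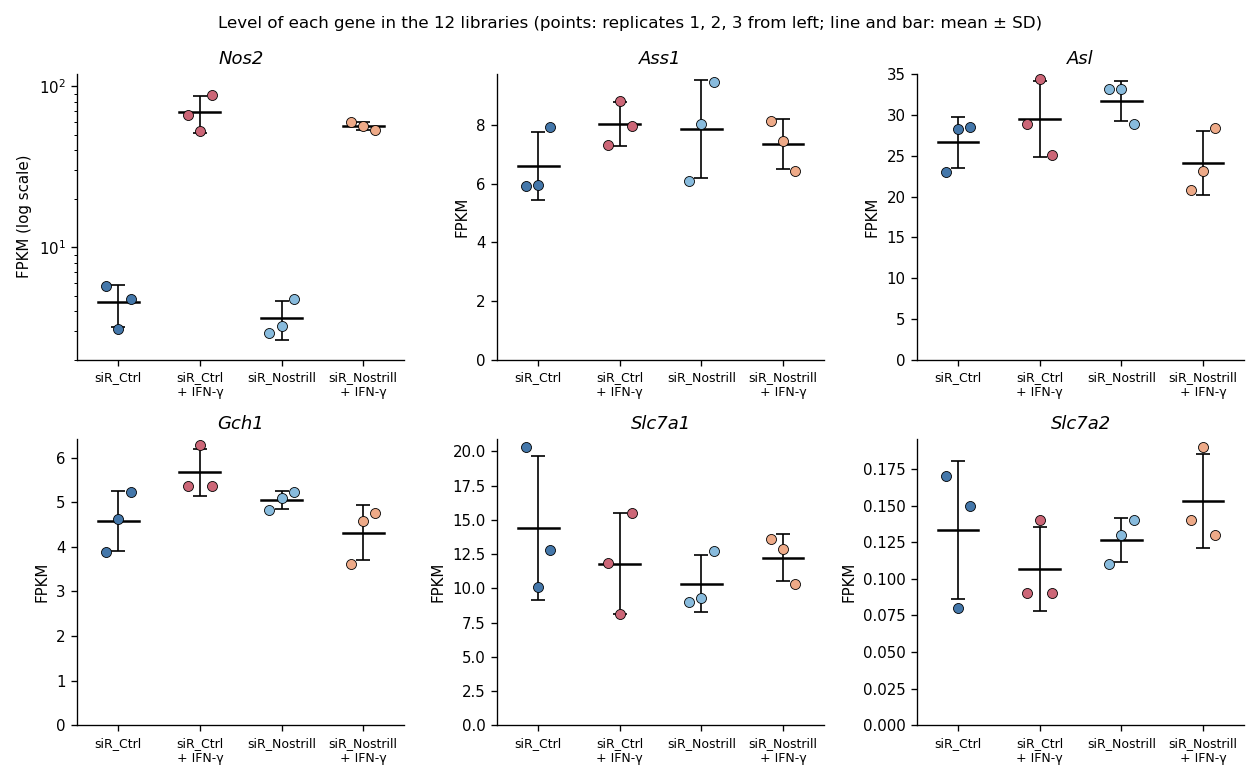
Each panel plots the FPKM of one gene (vertical axis, logarithmic for Nos2 and linear from 0 for the others) in the 3 libraries of each group (points), with the mean (line) and SD (bar). Nos2 sat at 2.92 to 5.73 FPKM without and 52.66 to 88.49 with IFN-γ, while in the other panels the groups lay closer together, Gch1 in siR_Ctrl + IFN-γ cells (5.36 to 6.29 FPKM) being above every library of the other groups (up to 5.24).

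Nos2 was the only gene of the group that passed the test for IFN-γ, 1 of 6 tested in each background. Over all 11900 genes tested, 5.45% passed in siR_Ctrl cells and 6.78% in siR_Nostrill cells. The same count of 1 was found with every alternative tried in siR_Ctrl cells and with each library left out. In siR_Nostrill cells the exception was the removal of the trend with gene length, where Asl passed as well, as did 19% of all genes.

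Ass1 (gene ID 11898, chromosome 2, 31470270 to 31520670), which joins citrulline and aspartate, was measured at 5.91, 5.95 and 7.95 FPKM in siR_Ctrl and 7.32, 8.81 and 7.98 in siR_Ctrl + IFN-γ cells. In siR_Nostrill cells it was at 6.11, 8.04 and 9.46 FPKM without and 8.13, 7.47 and 6.45 with IFN-γ. The groups overlapped in both backgrounds. The log2 fold change for IFN-γ was 0.36 (SE 0.17, unadjusted p = 0.0645, adjusted p = 0.388, edgeR, Benjamini-Hochberg) in siR_Ctrl and -0.12 (adjusted p = 0.691) in siR_Nostrill cells, neither past the threshold.

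Asl (gene ID 109900, chromosome 5, 130011258 to 130024381, minus strand), which releases arginine from argininosuccinate, was the most abundant of the 6 genes at rest. Its level was 23.06, 28.32 and 28.59 FPKM in siR_Ctrl and 28.95, 34.40 and 25.16 in siR_Ctrl + IFN-γ cells, which overlapped. In siR_Nostrill cells it was 33.25, 33.17 and 28.94 FPKM without IFN-γ against 20.80, 23.16 and 28.49 with it. Here every library with IFN-γ was lower than every library without, which describes 3 libraries a group and is not a test. The log2 fold change was 0.20 (SE 0.18, adjusted p = 0.697) in siR_Ctrl and -0.44 (SE 0.18, unadjusted p = 0.0330, adjusted p = 0.190) in siR_Nostrill cells, both from edgeR, Benjamini-Hochberg. After the dependence on gene length was taken out of the counts, the latter was -0.32 and passed (adjusted p = 0.0304, edgeR, Benjamini-Hochberg).

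Gch1 (gene ID 14528, chromosome 14, 47153895 to 47189413, minus strand) stood at 3.89, 4.62 and 5.24 FPKM in siR_Ctrl cells and 5.37, 6.29 and 5.36 in siR_Ctrl + IFN-γ cells. The libraries with IFN-γ were all higher, by a narrow margin. In siR_Nostrill cells Gch1 was at 4.84, 5.10 and 5.23 FPKM without IFN-γ, all above the 3.62, 4.58 and 4.77 FPKM with it. In TPM the latter pair of groups overlapped. The log2 fold change was 0.38 (SE 0.16, unadjusted p = 0.0361, adjusted p = 0.286) in siR_Ctrl and -0.25 (SE 0.16, adjusted p = 0.371) in siR_Nostrill cells by edgeR, Benjamini-Hochberg. Gch1 therefore did not pass for IFN-γ in either background, and the 95% interval in siR_Ctrl cells, 0.029 to 0.73 on the log2 scale, left out an increase of the size seen for Nos2.

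Slc7a1 (gene ID 11987, chromosome 5, 148327410 to 148399904, minus strand), the cationic amino acid carrier CAT-1, varied widely between libraries of a group. It was at 20.30, 10.10 and 12.81 FPKM in siR_Ctrl, 11.82, 8.09 and 15.50 in siR_Ctrl + IFN-γ, 9.02, 9.30 and 12.72 in siR_Nostrill and 13.59, 12.84 and 10.30 in siR_Nostrill + IFN-γ cells. All 4 groups overlapped, and the highest value of all was siR_Ctrl replicate 1. The log2 fold change for IFN-γ was -0.22 (adjusted p = 0.741) in siR_Ctrl and 0.23 (adjusted p = 0.574) in siR_Nostrill cells (SE 0.24 for both, edgeR, Benjamini-Hochberg). The former was 0.081 without siR_Ctrl replicate 1, and with the length trend removed the values were -0.069 and -0.024.

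Slc7a2 (gene ID 11988, chromosome 8, 40862341 to 40922070), the related carrier CAT-2, was near the lower limit of detection with 11 to 25 reads and 0.08 to 0.19 FPKM in a library. Its groups overlapped in every comparison and it passed in none. With so few reads, only large differences in Slc7a2 were detectable at this depth.

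The order of levels changed at its top with IFN-γ. In siR_Ctrl cells it ran from Asl (26.7 ± 3.12 FPKM, SD, n = 3) over Slc7a1 (14.4 ± 5.28), Ass1 (6.60 ± 1.17), Gch1 (4.58 ± 0.676) and Nos2 (4.54 ± 1.33) to Slc7a2 (0.133 ± 0.0473). Gch1 and Nos2 overlapped, and the other neighbours did not. With IFN-γ, Nos2 came first at 69.2 ± 18.1 FPKM, with no overlap with Asl at 29.5 ± 4.64 (SD, n = 3 each). Slc7a1 at 11.8 ± 3.71 FPKM then overlapped Ass1 at 8.04 ± 0.747. In siR_Nostrill cells the order was the same except that Slc7a1 (10.3 ± 2.06 FPKM) overlapped Ass1 (7.87 ± 1.68) without IFN-γ and Gch1 (5.06 ± 0.199) was above Nos2 (3.63 ± 0.972) with no overlap, although in TPM the latter pair overlapped. With IFN-γ the order again began with Nos2 (56.7 ± 3.45 FPKM), followed by Asl (24.2 ± 3.94).

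Ratios within a library describe the same change without reference to another library. Nos2 had 0.403 to 0.969 times the TPM of Ass1 without IFN-γ and 5.97 to 11.1 times with it, over 6 libraries each. Against Asl the ratio went from 0.0878 to 0.248 up to 1.53 to 3.52, and against Gch1 from 0.602 to 1.47 up to 8.36 to 16.7. Against Slc7a1 it went from 0.282 to 0.373 up to 4.39 to 6.51. None of these ranges overlapped between libraries with and without IFN-γ. The ratio of Ass1 to Asl was 0.184 to 0.327 without and 0.226 to 0.391 with IFN-γ, which overlapped widely. Nos2 made up 94.2% to 97.6% of the summed TPM of Nos1, Nos2 and Nos3 at rest and 99.5% to 99.8% with IFN-γ, so it was the main NO synthase transcript in each library. Slc7a1 made up 89.3% to 95.7% of the summed TPM of Slc7a1, Slc7a2 and Slc7a3.

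The question of whether the Nostrill siRNAs change these genes was put in 4 ways, at rest, under IFN-γ, as the difference between the 2 IFN-γ responses, and averaged over both states. Without IFN-γ, 0 of the 6 genes tested passed in edgeR, against 0.218% of all genes, 0 had an unadjusted p under 0.05, against 13.8%, and 0 passed in DESeq2, against 1.77%. With IFN-γ, 0 of 6 passed against 0.429% of all genes, with 1 (Gch1) at an unadjusted p under 0.05, against 14.5%, and 0 passing in DESeq2, against 3.97%. In both of these comparisons DESeq2 gave Slc7a2 no adjusted p, so it could not pass. The DESeq2 shares are over all 15002 genes, including those without an adjusted p. In the average of both states 0 of 6 passed, against 2.16% of all genes, with 0 at an unadjusted p under 0.05, against 16.5%, and 0 passing in DESeq2, against 5.23%.

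Nos2 had overlapping FPKM levels in siR_Nostrill and siR_Ctrl cells in both states. At rest the means were 3.63 and 4.54 FPKM, with a log2 fold change of -0.31 (SE 0.23, 95% interval -0.80 to 0.19, adjusted p = 0.460, edgeR, Benjamini-Hochberg). It was -0.12 without siR_Ctrl replicate 1 and -0.50 without siR_Nostrill replicate 3. Under IFN-γ the 3 siR_Nostrill libraries lay at 53.41 to 60.29 FPKM, inside the 52.66 to 88.49 of siR_Ctrl cells. The log2 fold change was -0.34 (SE 0.21, 95% interval -0.79 to 0.12, adjusted p = 0.4995, edgeR, Benjamini-Hochberg), so Nos2 was not shown to differ, and the interval reaches from 0.577 to 1.09 times the siR_Ctrl level. Leaving out siR_Ctrl + IFN-γ replicate 3, the highest Nos2 library, gave -0.14, and leaving out replicate 2, the lowest of that group, gave -0.48. With the length trend removed it was -0.37 (unadjusted p = 0.0104, adjusted p = 0.0665, edgeR, Benjamini-Hochberg). In that setting the groups under IFN-γ did not overlap, at 7.75, 7.70 and 7.70 log2 CPM in siR_Nostrill against 8.01, 7.90 and 8.32 in siR_Ctrl cells, and 13% of all genes passed while Nos2 did not. Averaged over both states the log2 fold change was -0.32 (SE 0.15, unadjusted p = 0.0598, adjusted p = 0.328, edgeR, Benjamini-Hochberg).

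The IFN-γ response of Nos2 was not shown to differ between the backgrounds. The interaction, the log2 fold change in siR_Nostrill minus that in siR_Ctrl cells, was -0.030 (SE 0.31, 95% interval -0.70 to 0.64, adjusted p = 0.959, edgeR, Benjamini-Hochberg). On the linear scale the ratio of the 2 responses was 0.98 (0.614 to 1.56), so a change of the response by up to about that factor in either direction was not distinguishable with 3 libraries a group. It was -0.18 with the length trend removed (adjusted p = 0.625, edgeR, Benjamini-Hochberg), and ran from -0.22 without siR_Ctrl replicate 1 to 0.17 without siR_Ctrl + IFN-γ replicate 3.

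**Figure D2:**
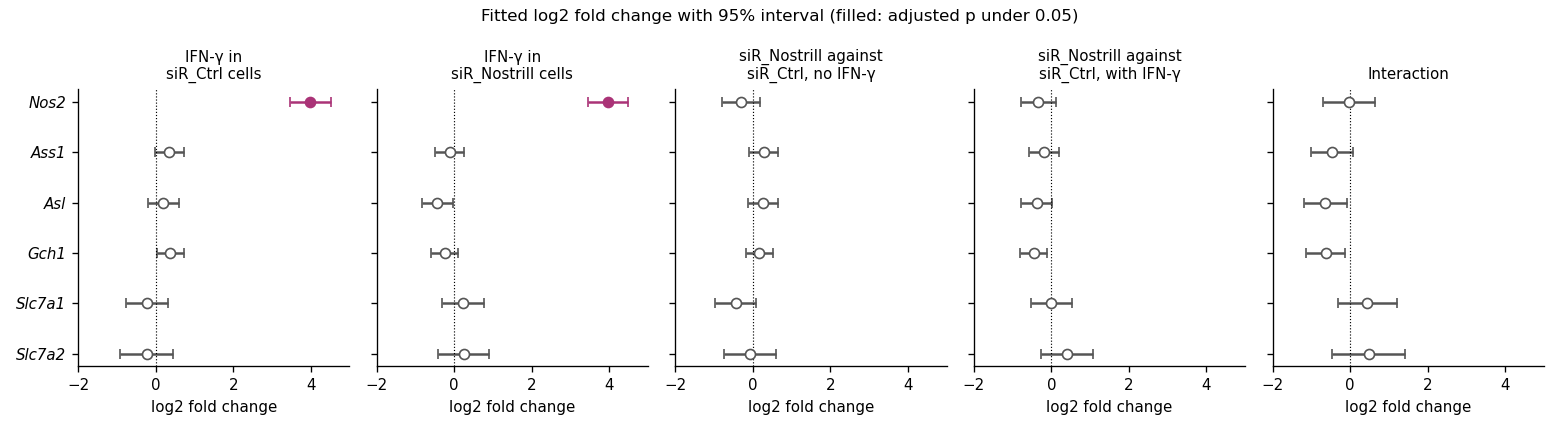
Each panel shows the fitted log2 fold change (horizontal axis) of the 6 genes tested in one comparison, with its 95% interval, and filled points passed an adjusted p of 0.05. Only Nos2 under IFN-γ was filled, at 3.99 and 3.97, and its interaction was centred near 0.

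The supply genes were compared in the same way for the difference in their IFN-γ response between the backgrounds. For Gch1 the interaction was -0.63 (SE 0.23, unadjusted p = 0.0183) and for Asl -0.64 (SE 0.26, unadjusted p = 0.0299), both with an adjusted p of 0.430 (edgeR, Benjamini-Hochberg). None of the 6 genes passed, and 0 of all 11900 genes did (0%), with 1277 (10.7%) at an unadjusted p under 0.05 and 0 passing in DESeq2. For Ass1 the interaction was -0.47, and for Slc7a1 and Slc7a2 it was 0.45 and 0.48 (adjusted p from 0.430 to 0.520, edgeR, Benjamini-Hochberg). The interaction with the length trend removed was -0.62 for Gch1, -0.43 for Asl, -0.24 for Ass1 and 0.045 for Slc7a1. For Slc7a2 no length could be estimated, so its own counts were not corrected in that setting. The value for Slc7a1 was 0.15 without siR_Ctrl replicate 1.

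At rest, Asl was higher in each siR_Nostrill library (28.94 to 33.25 FPKM) than in each siR_Ctrl library (23.06 to 28.59), with a log2 fold change of 0.26 that did not pass (SE 0.18, adjusted p = 0.444, edgeR, Benjamini-Hochberg) and was 0.12 with the length trend removed. Between the IFN-γ-treated groups, Gch1 was lower in each siR_Nostrill library (3.62 to 4.77 FPKM) than in each siR_Ctrl library (5.36 to 6.29). Its log2 fold change was -0.46 (SE 0.16, unadjusted p = 0.0152, adjusted p = 0.203), and that of Asl, whose groups overlapped, was -0.38 (SE 0.18, adjusted p = 0.373), both by edgeR, Benjamini-Hochberg. With the length trend removed, both passed, Gch1 at -0.46 (adjusted p = 0.0474) and Asl at -0.31 (adjusted p = 0.0437, edgeR, Benjamini-Hochberg). That setting called 1545 genes over the whole table in this comparison (13%), against 51 without it. Ass1 and Slc7a1 had log2 fold changes of -0.19 (adjusted p = 0.658) and 0.002 (adjusted p = 0.999) under IFN-γ, and of 0.28 (adjusted p = 0.417) and -0.45 (adjusted p = 0.389) at rest, all by edgeR, Benjamini-Hochberg. The value of Slc7a1 at rest was -0.15 without siR_Ctrl replicate 1 and -0.11 with the length trend removed, where that of Ass1 was 0.13. For Slc7a2 the log2 fold change was 0.40 (adjusted p = 0.598) under IFN-γ and -0.08 (adjusted p = 0.882) at rest by edgeR, Benjamini-Hochberg. Whether the seed matches bear on these values was not tested.

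Part of the spread within groups went with the length of the gene. The ratio of TPM to FPKM of a library, which is higher the more its reads fall on long genes, ran from 1.26 in siR_Ctrl + IFN-γ replicate 2 to 1.75 in siR_Ctrl replicate 1. Slc7a1 (effective length 6919 bases) and Nos2 (3819 bases) were highest in the library with the highest ratio in 4 of 4 groups. Asl (1526 bases) was lowest there in 4 of 4 groups, and Gch1 (2538 bases) in 3 of 4. Over the 12 pairs of libraries within groups, the order by Slc7a1 and by Nos2 matched the order by ratio in 11 pairs each, and that by Asl in 0. The pooled SD within groups, on the log2 CPM scale, was 0.340 for Slc7a1, 0.309 for Nos2 and 0.244 for Asl, and became 0.083, 0.220 and 0.125 once the trend was removed, while Gch1 went from 0.205 to 0.196 and Ass1 from 0.220 to 0.241. The median over all genes fell from 0.193 to 0.118. The siR_Nostrill + IFN-γ libraries had ratios of 1.43 to 1.55 and the siR_Nostrill libraries 1.27 to 1.47, which overlapped, and the siR_Ctrl + IFN-γ libraries 1.26 to 1.57. What made the ratio differ between libraries was not tested.

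**Figure D3:**
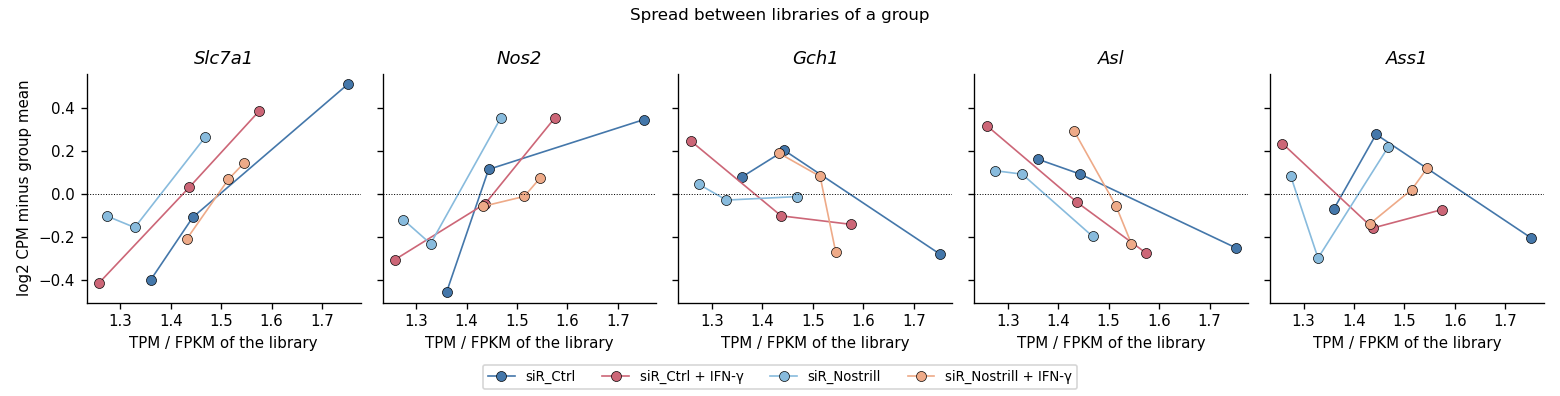
For each gene, the log2 CPM of a library minus its group mean (vertical axis) is plotted against the TPM to FPKM ratio of that library (horizontal axis), with lines joining the 3 libraries of a group. Slc7a1 and Nos2 climbed with the ratio in 11 of 12 pairs of libraries each and Asl descended in all 12, while Ass1 showed no common slope.

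The wider pathway held 39 further genes, of which 33 were listed and 24 could be tested. Azin2, an antizyme inhibitor that protects ornithine decarboxylase from degradation, was the only one to pass for IFN-γ, 1 of 24 in each background and against 5.45% and 6.78% of all genes. It rose from 8.09 ± 1.72 to 19.9 ± 2.43 FPKM (SD, n = 3 each) in siR_Ctrl cells, a log2 fold change of 1.36 (adjusted p = 0.000457, edgeR, Benjamini-Hochberg). In siR_Nostrill cells it rose from 10.1 ± 1.82 to 16.4 ± 1.61 FPKM (SD, n = 3 each), or by 0.69 (adjusted p = 0.0377, edgeR, Benjamini-Hochberg). This second call was lost when any 1 of the 6 siR_Nostrill libraries, with or without IFN-γ, was left out (adjusted p up to 0.133, log2 fold change 0.57 to 0.80 over all 12 libraries left out in turn), while it was kept in the 10 other alternatives, and the interaction of Azin2 did not pass (-0.67, adjusted p = 0.430, edgeR, Benjamini-Hochberg). DESeq2 called Azin2 too, and in addition Azin1 in siR_Ctrl and Adh5 and Ddah1 in siR_Nostrill cells, where it called 5.59% and 8.87% of all genes. With the length trend removed, edgeR called 5 of 24 in siR_Ctrl cells (Azin2, Sat1, Srm, Ddah2 and Azin1), against 11.1% of all genes. In siR_Nostrill cells it then called 7 of 24 (Azin2, Qdpr, Spr, Adh5, Calm3, Ddah1 and Ddah2), against 19% of all genes. The median log2 fold change of the 24 genes was 0.072 in siR_Ctrl and -0.12 in siR_Nostrill cells, against -0.0085 and -0.00056 over all genes.

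The 5 other tetrahydrobiopterin genes had means of 9.56 to 115 FPKM in siR_Ctrl cells, against 4.58 for Gch1. None of the 5 passed for IFN-γ in edgeR, with 0 and 1 at an unadjusted p under 0.05 in siR_Ctrl and siR_Nostrill cells, against 14.6% and 21.9% of all genes, and 0 called in both by DESeq2. With the length trend removed, 2 of the 5, Qdpr and Spr, fell with IFN-γ in siR_Nostrill cells and 0 passed in siR_Ctrl cells, against 19% and 11.1% of all genes. Gchfr, the feedback regulator of Gch1, was the highest of them at 115 ± 28.6 FPKM in siR_Ctrl and 117 ± 43.7 in siR_Ctrl + IFN-γ cells (SD, n = 3 each). Among partners and inhibitors of NO synthase the highest was Calm2, a calmodulin gene, at 586 ± 47.7 and 558 ± 34.4 FPKM (SD, n = 3 each). The highest arginine and ornithine enzyme in siR_Ctrl cells was Srm, spermidine synthase, at 151 ± 11.2 and 123 ± 14.5 FPKM, and the highest other carrier was Slc3a2, at 83.5 ± 7.75 and 86.2 ± 9.10 FPKM. Of the genes for NO sensing and disposal, Adh5, which breaks down S-nitrosoglutathione, was at 82.2 ± 11.6 and 80.0 ± 7.46 FPKM (SD, n = 3 each). Gucy1a1 and Gucy1a2, genes of soluble guanylate cyclase, the enzyme that senses NO, had group means of at most 0.0167 FPKM. Gucy1b1, a further gene of that enzyme, was not among the listed genes. Nos1 and Nos3 had group means of at most 0.04 and 0.14 FPKM. Under siR_Nostrill, 0 of the 24 genes passed at rest and 0 under IFN-γ in edgeR, against 0.218% and 0.429% of all genes. At an unadjusted p under 0.05 there were 2 and 4, against 13.8% and 14.5% of all genes, and DESeq2 called 0 in both, against 1.77% and 3.97%. With the length trend removed, 0 passed at rest and 6 under IFN-γ (Adh5, Calm3, Srm, Slc7a6, Ddah2 and Nosip, 3 higher and 3 lower), against 3.46% and 13% of all genes.

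**Figure D4:**
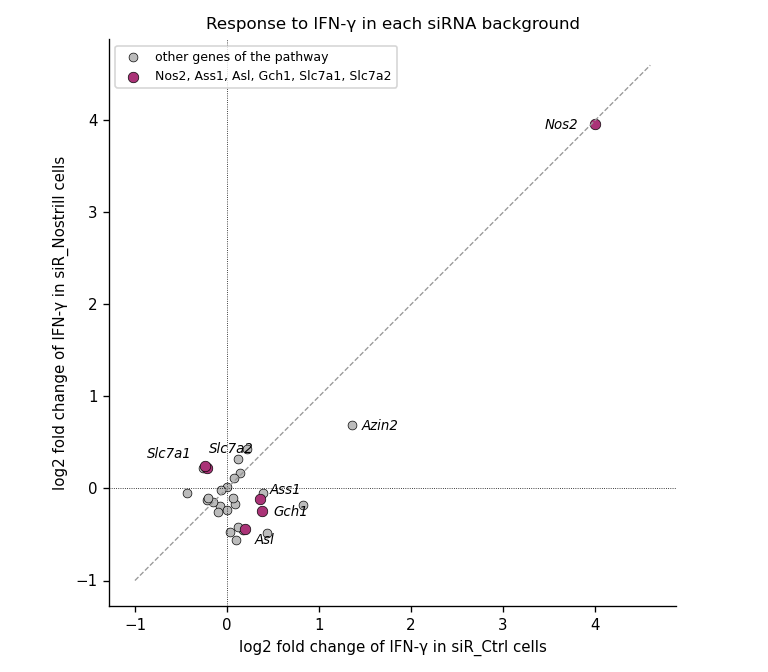
The log2 fold change for IFN-γ in siR_Ctrl cells (horizontal axis) is plotted against that in siR_Nostrill cells (vertical axis) for the 6 genes tested (purple) and 24 further pathway genes (grey), with equal values on the dashed line; the pairs of groups share no library. Nos2 lay alone at 3.99 and 3.97, Azin2 at 1.36 and 0.69, and the rest between -0.44 and 0.82 on the horizontal and between -0.56 and 0.43 on the vertical axis.

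Among the genes most like Nos2 over the 12 libraries were Cish, Nod1, Stat3 and Plekhm1, with Pearson correlations of log2 CPM from 0.994 to 0.996. All of these rose with IFN-γ, so the value includes the step between 2 levels, with and without IFN-γ, and the libraries differ in their length trend. Their log2 fold changes in siR_Ctrl cells ran from 1.16 for Plekhm1 to 2.04 for Cish, a suppressor of cytokine signalling. Within the 6 libraries without IFN-γ the correlations of Cish, Nod1, Stat3 and Plekhm1 with Nos2 were 0.88, 0.78, 0.84 and 0.85. Within the 6 with IFN-γ they were 0.64, 0.76, 0.62 and 0.83. For the other members the correlation with Nos2 was 0.29 for Ass1, 0.15 for Slc7a1, 0.11 for Gch1, 0.033 for Slc7a2 and -0.31 for Asl. Within the 6 libraries without IFN-γ it was 0.92 for Slc7a1, 0.80 for Slc7a2, 0.021 for Ass1, -0.56 for Gch1 and -0.88 for Asl. Within the 6 with IFN-γ it was 0.70, -0.79, 0.054, 0.14 and -0.12 in the same order, which are descriptions over few libraries that differ in their length trend as given above.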

How the data were processed

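RNA of 12 IEC4.1 libraries was sequenced on a DNBSEQ platform. The submitters' processing notes name HISAT2 and GRCm38.p6, and the study's methods add SOAPnuke, Bowtie2 and GATK. No source used here names the counting tool. The authors deposited, for each library, an estimated count of reads per gene, an FPKM (scaled for length and mapped reads) and a TPM value (scaled to a common total). Between 90.6% and 91.6% of the estimated counts in a library had no decimal part at all, and all were rounded to whole numbers. Genes that share reads with a copy cannot be told from these counts.

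The 6 comparisons were tested with edgeR 4.0.16 in R 4.3.3 (quasi-likelihood test on all 12 libraries, TMM, filterByExpr at its defaults, Benjamini-Hochberg over 11900 genes, threshold 0.05). Alternatives were DESeq2 1.42.0, its size factors in edgeR, no filter, a floor of 5 mean CPM, a fit to the compared groups alone, replicate number added as a block, limma 3.58.1 on log2(FPKM + 1) or log2(FPKM + 0.1) (genes averaging 0.5 FPKM or more, or all genes), removal of the length trend (lowess, span 0.3, as offsets), and each library left out. Slc7a2 was too low for a length estimate, so no length trend was taken out of its counts. Log2 CPM used a prior count of 2. The fits were tested on simulated data. Replicates are described as biological triplicates, and the labels do not say whether they were separate cultures, so p-values measure the spread between these libraries. All replicates differed by more than sampling noise (chi-square per degree of freedom 6.46 to 96.5). Statements that groups did or did not overlap describe 3 libraries a group, and no share over all genes is given for them.

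The members and gene lists were chosen with earlier results of these data known. Nos1, Slc7a3, Gucy1a1, Gucy1a2 and Gucy1b1 were named for their role alone. Also named were the 6 genes and pathway genes that passed or had the highest FPKM of their group. The 5 tested genes most correlated with Nos2 were added. One gene chosen with the 6, and 1 of these 5, are not reported here. Coordinates are from RefSeq on GRCm38.p6 and transcripts from GENCODE vM21. Of the 6 genes, 3 had a RefSeq promoter sequence (Ass1, Gch1 and Slc7a1; Asl, Nos2 and Slc7a2 were not in the table), and none is shown because no measurement here bears on promoters.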

Additional observations from a re-analysis of the deposited data

How the results depend on the processing

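Over 36 log2 fold changes (6 genes, 6 comparisons), 318 of 330 values from alternatives other than leaving out a library kept their direction and side of the threshold, 3 passed that had not, 9 turned sign, and 0 lost a call. With each library left out in turn, 416 of 432 kept both, 16 turned sign and 0 lost a call. Of the 34 results that did not pass, 28 moved by over 1.5 times without some library, and of the 2 that passed, 0 did. Nos2 passed for IFN-γ in each of these fits, at a log2 fold change of 3.66 to 4.07 over the alternatives and 3.80 to 4.18 with a library left out in siR_Ctrl cells, and of 3.66 to 3.99 and 3.85 to 4.16 in siR_Nostrill cells. The number of members called moved only with the length trend removed, to 2 for IFN-γ in siR_Nostrill cells (Nos2 and Asl) and to 2 for siR_Nostrill against siR_Ctrl with IFN-γ (Asl and Gch1); the cause was not tested.

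The values that turned sign were small. With the length trend removed, IFN-γ in siR_Nostrill cells gave 0.026 for Ass1 and -0.024 for Slc7a1. Slc7a1 in siR_Nostrill against siR_Ctrl with IFN-γ (0.002) went to -0.00062 with DESeq2, -0.00129 with its size factors, -4.59e-05 without a filter, -0.00056 with a mean of at least 5 CPM, -0.0014 with only the groups compared and -0.061 with the length trend removed. The interaction of Nos2 went to 0.045 with limma on log2(FPKM + 0.1). With a library left out, the ranges were -0.43 to 0.081 for Slc7a1 with IFN-γ in siR_Ctrl cells, -0.32 to 0.13 for Slc7a2 in siR_Nostrill against siR_Ctrl without IFN-γ, -0.18 to 0.21 for Slc7a1 in the same comparison with IFN-γ, and -0.22 to 0.17 for the interaction of Nos2. For the average over both states they were -0.014 to 0.12 for Ass1 and -0.14 to 0.034 for Asl. The causes were not tested.

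Replicate numbers were not shown to pair the samples: deviations of same-numbered libraries correlated from -0.49 to 0.73, with 8 of 18 pairs over 0.1. With the replicate number as a block, the members called stayed at 1, 1, 0, 0, 0 and 0 in the 6 comparisons, Nos2 rose with IFN-γ by 3.99 in both backgrounds, and its difference under IFN-γ was -0.31. The number of all genes called depended much more on the setting. It was 649 and ranged from 341 to 1322 over alternatives for IFN-γ in siR_Ctrl cells, 807 (705 to 2259) in siR_Nostrill cells, 26 (0 to 412) for siR_Nostrill without IFN-γ, 51 (0 to 1545) with IFN-γ, 257 (168 to 1616) for the average, and 0 in every setting for the interaction. With a library left out the ranges were 489 to 589, 491 to 1138, 0 to 37, 0 to 72 and 83 to 254. For IFN-γ in siR_Nostrill cells the low counts were 491 without siR_Nostrill replicate 2 and 500 without siR_Nostrill + IFN-γ replicate 2, and for the comparisons between siRNAs leaving out nearly any library lowered the count by over 1.5 times. In TPM in place of FPKM, the order of the 6 genes changed only in siR_Ctrl cells, where Nos2 and Gch1 changed places. Slc7a2 is limited by depth, and its values in the setting with the length trend removed, counted above, carry no length correction of their own.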
